A study of Mus musculus with 6 samples.

Results

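Superoxide dismutases, catalase and peroxiredoxins are the enzymes that remove superoxide and hydrogen peroxide from cells. Their mRNA was measured in primary vascular smooth muscle cells from mouse aorta, grown with high glucose and hydrogen peroxide. The 10 members were the rows of the deposited gene table whose symbol equals Sod1, Sod2, Sod3, Cat, Prdx1, Prdx2, Prdx3, Prdx4, Prdx5 or Prdx6, out of 27179 genes in all. All 10 were found once each, and all 10 passed the filter on low values. There were 6 libraries of polyadenylated RNA, 3 labelled WT and 3 labelled Bmal1 KO. Both groups spent 7 days in what the labels name diabetic condition medium. Its additions to the growth medium were glucose (4.5 g/L) and hydrogen peroxide (0.3 mM). The growth medium was DMEM with 10% serum, at 37 °C and 10% CO2. The labels give no allele, Cre driver, sex or age for the mice, and do not say whether the replicates of a group were separate cultures or animals. The p-values thus reflect the spread among these libraries alone, and part of that spread may be technical.

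Superoxide is made by the respiratory chain and by NADPH oxidases, and a superoxide dismutase turns it into hydrogen peroxide. SOD1 is the copper and zinc enzyme of the cytosol, SOD2 the manganese enzyme of the mitochondrial matrix, and SOD3 a secreted copper and zinc enzyme that binds the matrix of the artery wall. Hydrogen peroxide is then broken down by catalase, a heme enzyme of the peroxisome, and by peroxiredoxins, whose reactive cysteine is reset by thioredoxin or, for PRDX6, by glutathione. PRDX1 and PRDX2 lie mainly in the cytosol, PRDX3 in mitochondria, PRDX4 in the endoplasmic reticulum and PRDX5 in mitochondria, peroxisomes and the cytosol. In arteries these enzymes are known for limiting the loss of nitric oxide to superoxide, and for setting how far hydrogen peroxide acts as a signal.

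Promoter windows of 8 of the 10 members were found in a RefSeq table (build GRCm38.p6), each running from 250 bases before to 50 bases after the transcript start that the table uses. For 7 of the 8 that start is the outer end of the gene as RefSeq gives it, and for Prdx4 it lies 3812 bases inside the gene. They were searched on both strands for the E-box CACGTG, which CLOCK and BMAL1 bind, for TGACNNNGC, the core of the antioxidant response element that NRF2 binds and for the binding motif of NF-kB. The E-box is its own reverse complement and stood in the Prdx4 window only, among 8, at 52 bases before that inner transcript start. The antioxidant response core stood in the windows of Sod1 (56 bases before the start) and Prdx1 (133 before), both on the opposite strand. The NF-kB string stood in none of the 8, which says nothing of other forms of that motif. Of all 32851 promoter windows of 300 bases, 7.15% held the E-box, 12.4% the antioxidant response core and 0.411% the NF-kB string. No 2 of these matches overlapped. The 3 windows with a match are printed with the match in capitals. Beside them is that of Sod2, the member with the largest difference between genotypes, which has no match to the strings searched.
Sod1, chr16:90220512-90220811, plus strand: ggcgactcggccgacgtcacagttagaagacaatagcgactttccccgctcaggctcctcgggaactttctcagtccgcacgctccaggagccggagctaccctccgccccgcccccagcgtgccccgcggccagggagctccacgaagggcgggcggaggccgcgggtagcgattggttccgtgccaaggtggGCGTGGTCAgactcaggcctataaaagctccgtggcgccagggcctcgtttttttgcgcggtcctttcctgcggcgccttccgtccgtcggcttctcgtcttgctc
Prdx1, chr4:116685349-116685648, plus strand: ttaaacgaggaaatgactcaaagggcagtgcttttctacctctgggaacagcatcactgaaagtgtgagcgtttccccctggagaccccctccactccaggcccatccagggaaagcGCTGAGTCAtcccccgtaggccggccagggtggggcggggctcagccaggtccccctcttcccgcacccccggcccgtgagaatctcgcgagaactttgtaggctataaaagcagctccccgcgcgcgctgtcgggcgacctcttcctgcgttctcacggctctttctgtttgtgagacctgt
Prdx4, chrX:155338411-155338710, minus strand: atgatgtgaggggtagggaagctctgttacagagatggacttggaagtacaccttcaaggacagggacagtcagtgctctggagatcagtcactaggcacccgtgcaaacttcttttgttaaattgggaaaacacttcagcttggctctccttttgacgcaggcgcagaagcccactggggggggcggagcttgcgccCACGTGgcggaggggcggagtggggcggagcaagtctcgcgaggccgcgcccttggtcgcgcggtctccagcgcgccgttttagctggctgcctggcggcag
Sod2, chr17:13007589-13007888, plus strand: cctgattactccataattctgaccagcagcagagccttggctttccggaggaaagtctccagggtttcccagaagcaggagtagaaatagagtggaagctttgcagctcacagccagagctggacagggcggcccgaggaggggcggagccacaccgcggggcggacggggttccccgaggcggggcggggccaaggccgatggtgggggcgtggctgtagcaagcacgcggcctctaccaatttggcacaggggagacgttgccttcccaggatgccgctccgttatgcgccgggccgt
A match describes the letters of a window and is not a shown binding site. The windows of the 8 members had 57.0% (Prdx3) to 68.7% (Prdx2) G and C, against a median of 52.7% over all windows.

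The libraries held 32503525 to 44657471 reads assigned to genes. Values are normalized read counts, which are reads divided by 1 size factor per library, and each ± is an SD of 3 libraries. Every difference is Bmal1 KO minus WT, tested with limma across the 16086 genes that reached 10 normalized counts in 3 or more libraries. Adjusted p-values are Benjamini-Hochberg values from that fit with a threshold of 0.05. The Bmal1 gene, listed as Arntl, was higher in the libraries labelled Bmal1 KO (1036, 941 and 1036) than in WT (529, 619 and 590.4), so gene-level counts do not show the knockout. Directions below are those of the libraries labelled Bmal1 KO. These libraries also had more Xist RNA (3842 to 3887 against 12.4 to 89.9). They had less of the Y-linked Ddx3y (68.5 to 82.5 against 2784 to 3314). The groups thus appear to differ in sex, which the labels do not give. Sex and the genotype label cannot be told apart for any gene here, autosomal or X-linked. All 9 smooth muscle markers had reads in every library, with summed levels of 55560.1 to 62242 in WT and 154614 to 164767 in Bmal1 KO. Lists of other cell types also differed in summed level, with 43144 to 45215 and 31851 to 34771 for 7 fibroblast markers, 843 to 1099 and 1953 to 2384 for 8 macrophage markers, 756 to 879.5 and 998 to 1281 for 8 endothelial markers, and 1311 to 1987 and 4737 to 6162 for 7 adipocyte markers, in WT and Bmal1 KO. The adipocyte sum was mostly Fabp4, with Lep at 0 in all libraries and Adipoq at 3.06 or less. The 6 erythroid markers in the table summed to 16.6 to 33.9 and 48.9 to 118. A sum can hide markers that move apart. By the test, 3 of 7 fibroblast markers rose and 4 fell. Of 8 endothelial markers 5 rose, 1 fell and 2 did not pass, and of 7 macrophage markers tested 6 rose and 1 fell. Over all genes tested 36.2% rose and 34.9% fell. The part of these cell types in the differences below was not tested. In bulk RNA, fewer cells of a type and less RNA per cell cannot be told apart.

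The members split. Sod1, Sod2, Prdx3 and Prdx5 fell in the libraries labelled Bmal1 KO, Cat and Prdx6 rose, and Sod3, Prdx1, Prdx2 and Prdx4 did not pass the test. Of all genes tested, 71.1% passed in either direction, 36.2% higher and 34.9% lower, so 6 calls among 10 members lie near that background. The median log2 fold change of the 10 members was -0.064, beside -0.012 over all genes tested. The WT and Bmal1 KO libraries did not overlap in 6 of the 10 members and in 76.7% of all tested genes. Together the members took 0.258%, 0.200% and 0.205% of all assigned reads in the WT libraries and 0.187%, 0.171% and 0.177% in the Bmal1 KO libraries. The plot of the members by library shows these values.

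**Figure D1:**
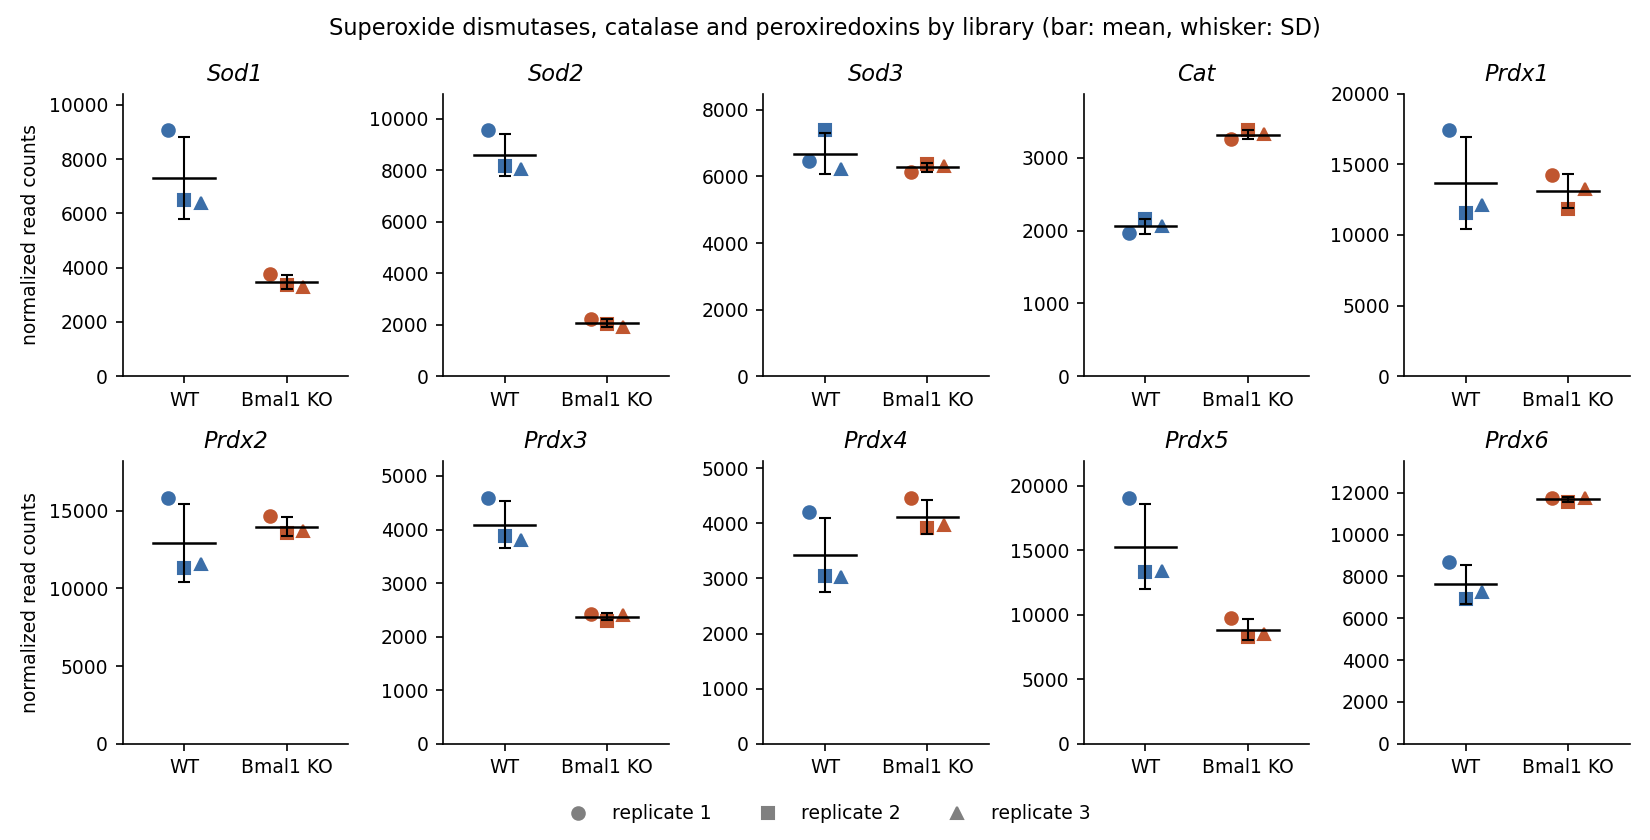
Normalized read counts of the 10 members in each library (vertical axes, starting at 0), with WT in blue and Bmal1 KO in orange. Bars are means and whiskers SDs over 3 libraries. Sod1, Sod2, Prdx3 and Prdx5 lie lower and Cat and Prdx6 higher in every Bmal1 KO library than in any WT library, and WT replicate 1 is the highest WT library in 8 of 10 panels.

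Sod2 differed most. Its normalized counts (chromosome 17, 13007839 to 13018119) were 9555, 8184 and 8060.4 in WT replicates 1, 2 and 3, and 2213, 2041 and 1921 in Bmal1 KO replicates 1, 2 and 3. Every Bmal1 KO library lay far under every WT library. The mean fell 4.18-fold, from 8599.6 ± 829 to 2058 ± 147 (SD, n = 3), a log2 fold change of -2.06 (SE 0.087, adjusted p = 6.65e-07). SOD2 is the only superoxide dismutase of the mitochondrial matrix. Among 12184 other genes with a symbol and a mean of at least 100, the 3 whose 6 log2 values, each centred on its own mean, lay nearest to those of Sod2 were Arrb2, which encodes a beta-arrestin, the mitochondrial lyase gene Clybl and Slc16a1, which encodes a lactate and pyruvate transporter. Their Euclidean distances from Sod2 over the 6 libraries were 0.099, 0.10 and 0.11 on the log2 scale, and their log2 fold changes -2.00, -2.07 and -2.12.

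Sod1 (chromosome 16, 90220762 to 90226333) had 9064, 6486 and 6375 normalized counts in the WT libraries and 3752, 3358 and 3279.7 in the Bmal1 KO libraries. The groups did not overlap, though WT replicate 1 stood well above the other WT libraries. The mean fell 2.11-fold, from 7308 ± 1521 to 3463 ± 253 (SD, n = 3), with a log2 fold change of -1.06 (SE 0.14, adjusted p = 0.00025). Without WT replicate 1 the log2 fold change was -0.90. The gene shares bases with Scaf4 on the opposite strand, and the strand setting of the counting is not given in the sources used here, so the source of some reads is uncertain.

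Sod3, the secreted enzyme (chromosome 5, 52363804 to 52369738), had 6451, 7385 and 6218 normalized counts in WT and 6130.4, 6365 and 6314 in Bmal1 KO. The groups overlapped, with WT replicate 2 highest and the Bmal1 KO libraries close together. The log2 fold change was -0.089, with a 95% interval of -0.26 to 0.086 (adjusted p = 0.316). In folds that interval runs from 0.833 to 1.06, so a difference of the size seen for Sod1 or Sod2 lies outside it. With values corrected for transcript length and GC content, Sod3 passed narrowly as lower, with a log2 fold change of -0.15 (adjusted p = 0.0450).

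Cat, the catalase gene, was the member with the largest rise. Its normalized counts (chromosome 2, 103453904 to 103485153) were 1962, 2166 and 2057 in WT and 3253, 3378 and 3328 in Bmal1 KO. The libraries of each group lay close together and the groups were well apart. The mean rose 1.61-fold, from 2062 ± 102 to 3319 ± 62.8 (SD, n = 3), a log2 fold change of 0.69 (SE 0.061, adjusted p = 3.51e-05). The genes nearest to Cat by the same distance were the zinc finger transcription factor gene Osr1, Acap3 and Fam149b, at 0.034, 0.035 and 0.049, with log2 fold changes of 0.69, 0.68 and 0.71.

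Prdx3, the mitochondrial peroxiredoxin gene (chromosome 19, 60864066 to 60874538), had 4591, 3881 and 3800.0 normalized counts in WT and 2423, 2294 and 2398 in Bmal1 KO. All Bmal1 KO libraries were lower than all WT libraries. The mean fell 1.72-fold, from 4091 ± 435 to 2372 ± 68.7 (SD, n = 3), with a log2 fold change of -0.78 (SE 0.083, adjusted p = 8.72e-05). Prdx5, whose product reaches mitochondria, peroxisomes and cytosol (chromosome 19, 6906697 to 6910106), had 19062, 13323 and 13392 in WT and 9768, 8239 and 8524 in Bmal1 KO. The groups again did not overlap, and WT replicate 1 was again the highest. The mean fell 1.73-fold, from 15259 ± 3294 to 8844 ± 813 (SD, n = 3), with a log2 fold change of -0.77 (SE 0.14, adjusted p = 0.00183), and of -0.60 without WT replicate 1. Prdx5 overlaps Trmt112 on the opposite strand. Both peroxiredoxin genes that fell encode proteins found in mitochondria, as does Sod2.

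Prdx6, whose product is reset by glutathione and also acts on phospholipids (chromosome 1, 161240112 to 161251210), had 8689.9, 6921 and 7228 normalized counts in WT and 11747, 11538 and 11751 in Bmal1 KO. Every Bmal1 KO library was higher than every WT library. The mean rose 1.53-fold, from 7613 ± 945 to 11679 ± 122 (SD, n = 3), with a log2 fold change of 0.62 (SE 0.089, adjusted p = 0.000451). Its paralog Prdx6b had 3 reads over the WT libraries and 5 over the Bmal1 KO libraries. A pseudogene named for Prdx6 exists in RefSeq, as do 1 for Prdx1 and 2 for Prdx2, so some reads of these genes are uncertain.

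The other 3 peroxiredoxins depended on WT replicate 1. Prdx1, the main cytosolic member (chromosome 4, 116685599 to 116700000), had 17394, 11524 and 12102 normalized counts in WT and 14254, 11860.2 and 13224 in Bmal1 KO. WT replicate 1 lay above and the other WT libraries within or under the range of the Bmal1 KO libraries. The log2 fold change was -0.039 (95% interval -0.40 to 0.32, adjusted p = 0.830), and its sign turned without WT replicate 1 (0.15) or Bmal1 KO replicate 2 (0.031), with the call still not passed (adjusted p = 0.138 and 0.887). It turned as well after the length and GC correction (0.016).

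Prdx2, the other cytosolic member (chromosome 8, 84969622 to 84974811), had 15827, 11320.0 and 11595 normalized counts in WT and 14667, 13551 and 13669 in Bmal1 KO. All Bmal1 KO libraries lay between WT replicate 1 and the other WT libraries. The log2 fold change was 0.13 (95% interval -0.17 to 0.42, adjusted p = 0.384). Without WT replicate 1 it was 0.28 and passed (adjusted p = 0.00255). Prdx2 overlaps Junb and Rnaseh2a on the opposite strand, and Junb itself went from a mean of 12743 to 4878.

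Prdx4, which removes peroxide made during protein folding, is the only X-linked member (chromosome X, 155323918 to 155342272). It had 4208, 3052 and 3034 normalized counts in WT and 4463, 3923 and 3964 in Bmal1 KO. WT replicate 1 fell within the range of the Bmal1 KO libraries and the other WT libraries lay under it. The log2 fold change was 0.28 (95% interval -0.025 to 0.58, adjusted p = 0.0881). Without WT replicate 1 it was 0.43 and passed (adjusted p = 0.000937), and it passed as well after the length and GC correction (0.48, adjusted p = 0.000198). Since Xist separated the groups, sex and genotype label cannot be told apart for this gene, nor for the autosomal members.

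Without WT replicate 1, 8 of the 10 members passed, 4 higher and 4 lower, where 72.7% of all genes did. After the length and GC correction 9 passed, 4 higher and 5 lower, against 77.2% of 14872 genes. The plot of fold changes under these analyses shows that the 6 members that passed with all libraries kept their direction and their call in both.

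**Figure D2:**
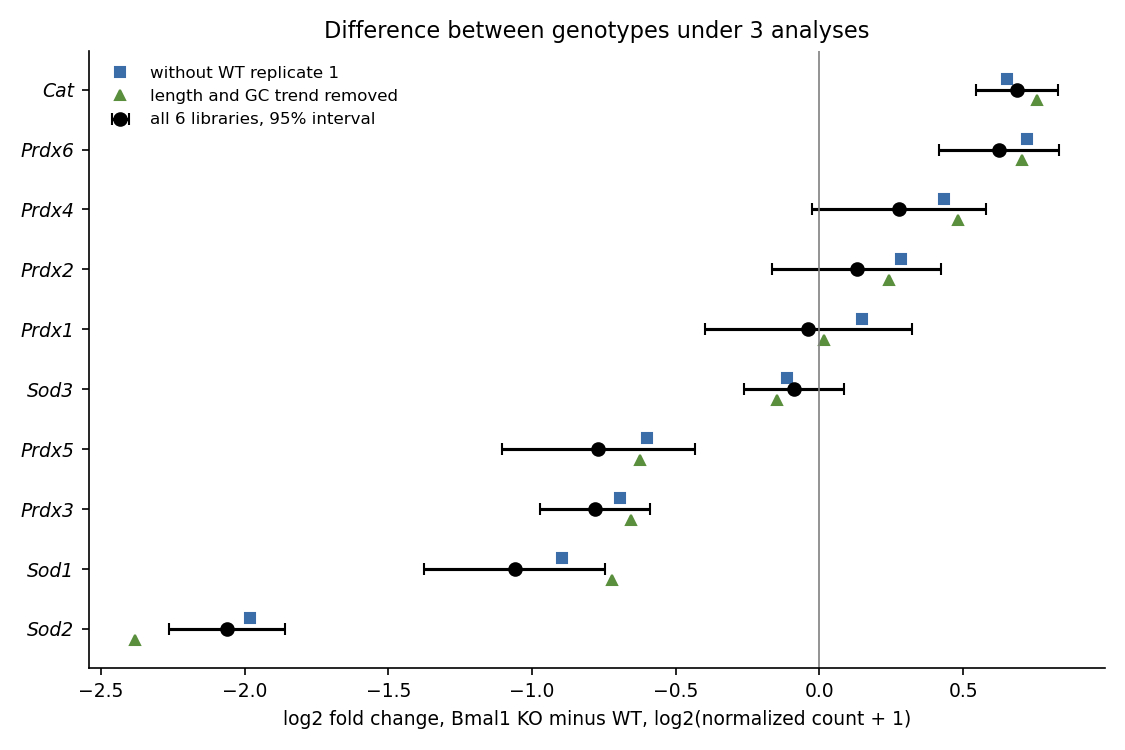
Log2 fold change of each member, Bmal1 KO minus WT (horizontal axis). Black points with 95% intervals use all 6 libraries, blue squares leave out WT replicate 1 and green triangles are corrected for transcript length and GC content. Sod2 lies farthest from 0 at -2.06, and the squares and triangles of Prdx2 and Prdx4 lie to the right of their black points.

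WT replicate 1 was higher in genes with short transcripts, by the medians of length classes. Over the tested genes with reads in every library, it exceeded the mean of WT replicates 2 and 3 by a median of 33.4% in the 812 genes with transcripts under 1000 bases and by 15.7% in the 2953 genes from 1000 to 2000 bases. The median was 1.26% from 2000 to 4000 bases and -10.7% from 4000 bases up. Among the members its excess was 41.0% for Sod1 (transcript of 641 bases), 38.3% for Prdx4 (990 bases), 42.7% for Prdx5 (1262 bases), 38.1% for Prdx2 (1612 bases) and 47.3% for Prdx1 (2294 bases), and it was -7.10% for Cat (2613 bases) and -5.15% for Sod3 (3738 bases). It was 19.5% for Prdx3 (1478 bases) and 22.8% for Prdx6 (2387 bases). Sod2, with the longest transcript (5861 bases), had an excess of 17.6%, above the median of its class, so length alone did not order the members. Bmal1 KO replicate 1 showed a smaller lean the same way, with a median excess of 11.1% in the shortest class.

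**Figure D3:**
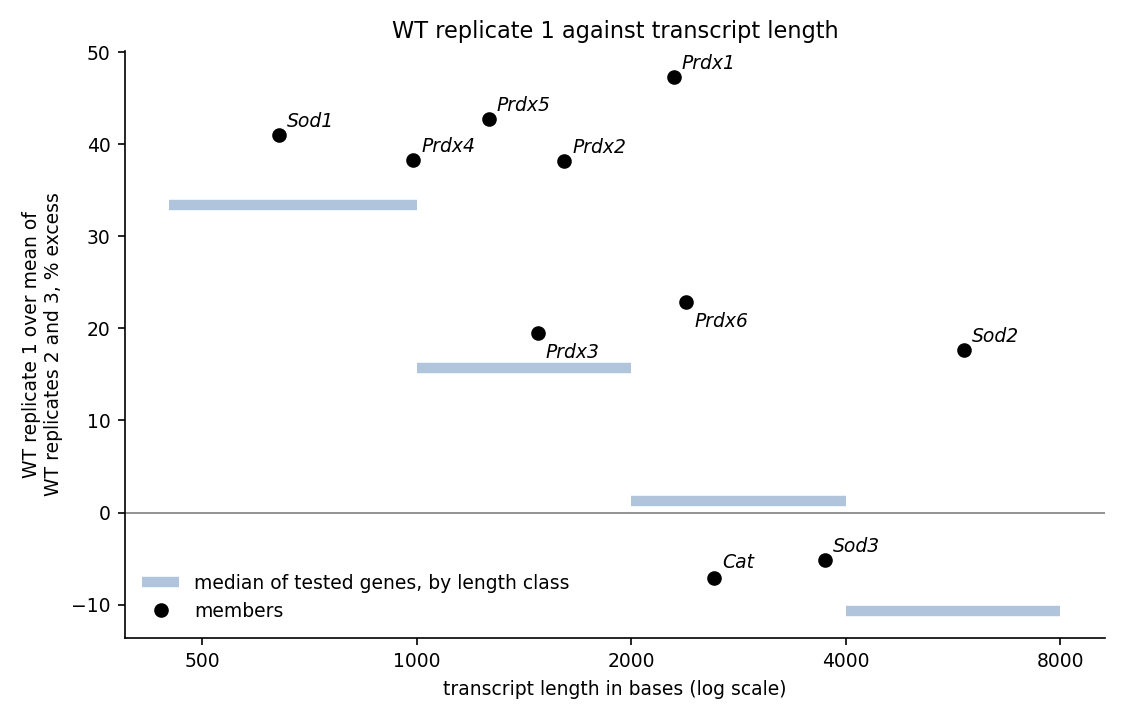
Excess of WT replicate 1 over the mean of WT replicates 2 and 3, in percent (vertical axis), against transcript length in bases (horizontal axis, log scale). Black points are the members and blue bars the medians of tested genes in 4 length classes, from 33.4% under 1000 bases to -10.7% from 4000 bases up. All members but Cat and Sod3 lie above 0.

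Ratios between members within a library do not depend on the scaling between libraries. They are given per kilobase of transcript and without a test. The ratio of Sod2 to Sod1 was 0.115, 0.138 and 0.138 in WT and 0.0645, 0.0665 and 0.0641 in Bmal1 KO, so the matrix enzyme's mRNA was 2.01-fold lower relative to the cytosolic one. The ratio of Cat to Sod1 was 0.0531, 0.0819 and 0.0792 in WT and 0.213, 0.247 and 0.249 in Bmal1 KO, a mean 3.31-fold higher. The groups did not overlap in either ratio. Neither ratio is corrected for the dependence on transcript length and GC content, and the size of both changes with that correction. With it the log2 fold changes were -2.38 for Sod2, -0.72 for Sod1 and 0.76 for Cat, beside -2.06, -1.06 and 0.69 without it. Sod3 to Sod1 rose in mean ratio from 0.162 to 0.312, as Sod1 mRNA fell and Sod3 mRNA did not pass the test. Prdx3 to Prdx1 was 0.410, 0.523 and 0.487 in WT and 0.264, 0.300 and 0.281 in Bmal1 KO. Prdx4 to Prdx1 was 0.561, 0.614 and 0.581 in WT and 0.726, 0.766 and 0.695 in Bmal1 KO. WT replicate 1 was high in both genes of this last pair, and their ratio did not overlap between groups either.

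**Figure D4:**
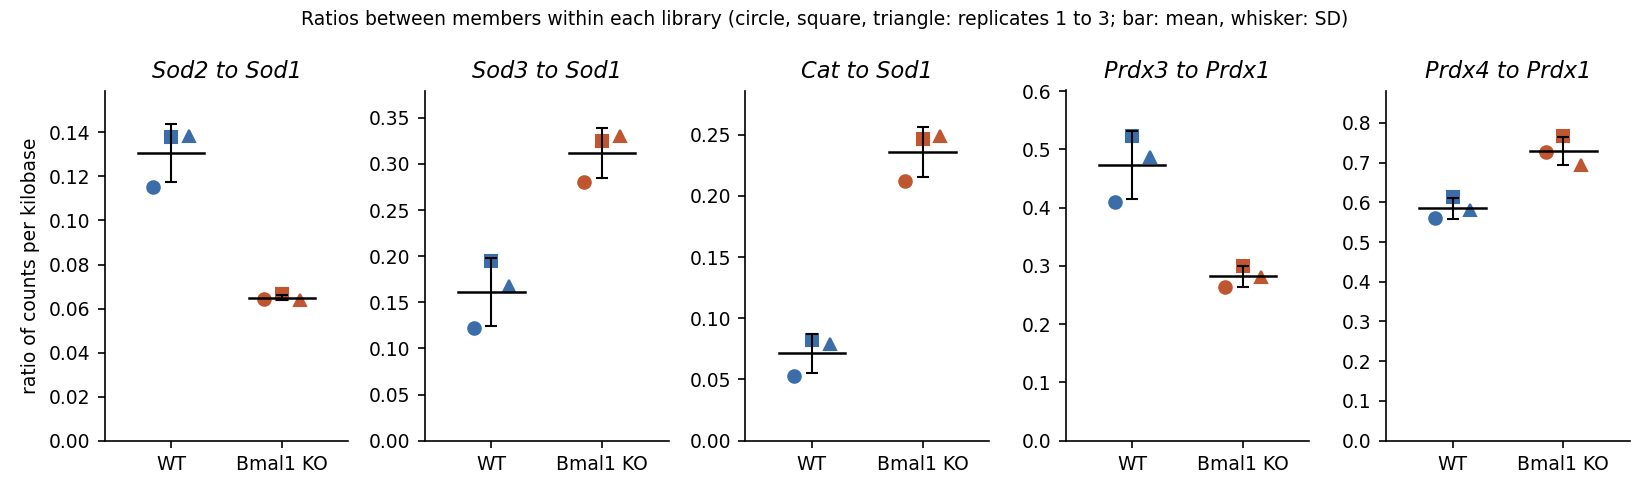
Ratios of normalized counts per kilobase between pairs of members in each library (vertical axes, starting at 0). Circles, squares and triangles are replicates 1, 2 and 3, bars are means and whiskers SDs. Sod2 to Sod1 and Prdx3 to Prdx1 are lower, and Sod3 to Sod1, Cat to Sod1 and Prdx4 to Prdx1 higher, in every Bmal1 KO library than in any WT library.

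Per kilobase of the annotated transcript, Prdx5 (12091 ± 2610 normalized counts per kilobase) and Sod1 (11402 ± 2373) were the most abundant members in WT, with ranges that overlapped. Prdx2 (8011 ± 1567) and Prdx1 (5960.5 ± 1410) followed and also overlapped, and then came Prdx4 (3466 ± 679), Prdx6 (3189 ± 396) and Prdx3 (2768 ± 295). In that trio the range of Prdx6 overlapped those of its neighbours. Sod3 (1788 ± 165), Sod2 (1467 ± 142) and Cat (789 ± 39.1) were lowest, each without overlap with the next. In Bmal1 KO the order was Prdx2 (8661 ± 380), Prdx5 (7008 ± 644), Prdx1 (5716 ± 523), Sod1 (5403 ± 395), Prdx6 (4893 ± 51.2), Prdx4 (4158 ± 304), Sod3 (1677 ± 33.0), Prdx3 (1605 ± 46.5), Cat (1270.3 ± 24.0) and Sod2 (351 ± 25.0), in which the ranges of Prdx1 and Sod1 alone among neighbours overlapped. Cat and Sod2 thus stood in opposite order in the groups. The transcript taken for Sod2 has 5861 bases, and a shorter form in these cells would raise its level per kilobase in both groups but not its fold.

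Lists of partner genes are read against the shares over all genes tested, 36.2% higher and 34.9% lower. Of 6 genes of copper uptake and delivery, not all of which serve SOD1 or SOD3, 4 fell, 1 rose and 1 did not pass. After the length and GC correction 3 fell and 3 did not pass. Ccs, whose product loads copper into SOD1, had 2566, 2073 and 1987 normalized counts in WT and 1494, 1336 and 1241 in Bmal1 KO, 1.63-fold lower (log2 fold change -0.70, adjusted p = 0.000888). The copper carrier gene Atox1 fell 1.61-fold (log2 fold change -0.67, adjusted p = 0.00857). Its log2 fold change shrank to -0.48 without WT replicate 1 and to -0.29 after the length and GC correction, and it passed in both. Atp7a, whose pump supplies copper to secreted enzymes such as SOD3, was the gene that rose, with a log2 difference of 0.24 (adjusted p = 0.0364). That call was lost without WT replicate 1 (0.17, adjusted p = 0.0624), Bmal1 KO replicate 1 (0.24, adjusted p = 0.0909) or Bmal1 KO replicate 2 (0.19, adjusted p = 0.133), and after the length and GC correction the log2 fold change was 0.033 (adjusted p = 0.638).

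The mitochondrial matrix genes listed here were lower together with Sod2 and Prdx3. All 11 of a list of matrix enzymes, chaperones and proteases fell, where 34.9% of all genes did, with a median log2 fold change of -1.06, and all 11 fell in each of the 6 fits that left out 1 library. The protease gene Lonp1 went from 11754 ± 518 to 4382 ± 59.1 (SD, n = 3), the chaperone gene Hspa9 from 41197 ± 579 to 14795 ± 326, the isocitrate dehydrogenase gene Idh2 from 6690.4 ± 375 to 2901 ± 58.1, and Tfam, which packs mitochondrial DNA, from 2807 ± 409 to 995 ± 70.7. The log2 fold change of Sod2, at -2.06, lay under those of all 11, which ran to -1.49 for Tfam, while that of Prdx3, at -0.78, lay within their range. This comparison of sizes was not tested. Outside that list, the mitochondrial thioredoxin gene Txn2 fell 1.46-fold and its reductase gene Txnrd2 rose 2.27-fold, so the fall does not extend to all mitochondrial genes.

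Of 11 genes of the thioredoxin system, which resets peroxiredoxins, 5 rose, 4 fell and 2 did not pass, near the 36.2% and 34.9% over all genes. Leaving out WT replicate 1 gave the same counts. The median log2 fold change was -0.062, and 0.11 without that library. Txn2, the mitochondrial thioredoxin gene, had 7109, 6696 and 5734 normalized counts in WT and 4529, 4212 and 4605 in Bmal1 KO, 1.46-fold lower (adjusted p = 0.000843). Txnrd2, the gene of its reductase, went the other way, from 205, 203 and 231 to 507, 501 and 442, or 2.27-fold higher (adjusted p = 5.73e-05). In the cytosol Txnrd1 fell 1.36-fold (adjusted p = 0.000695) and Txn1 did not pass (log2 fold change -0.083, adjusted p = 0.664), with its sign turned without WT replicate 1 (0.11) and after the length and GC correction (0.11). Srxn1, whose product repairs overoxidized peroxiredoxins, rose from 1810.4, 1936 and 1756 to 3334, 3491 and 3531, 1.88-fold (adjusted p = 9.18e-06). Txnip, which encodes a thioredoxin inhibitor, rose 1.98-fold (adjusted p = 7.65e-06), and the stress gene Sesn2 fell 2.69-fold (adjusted p = 1.73e-05).

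Of 19 genes of peroxisome assembly and membrane, the compartment of catalase, 10 fell, 3 rose and 6 did not pass. Of 10 matrix enzymes tested, 5 fell, 1 rose and 4 did not pass. Over all genes 71.1% passed, 34.9% as lower, so the share that passed was near the background in both lists. The median log2 fold changes were -0.18 and -0.19. Without WT replicate 1 the first list had 9 lower and 2 higher, and the second 6 lower and 2 higher. Pex5, the import receptor that carries catalase, went from 3815, 3868 and 3681 normalized counts to 2279.6, 2316 and 2366, 1.63-fold lower (adjusted p = 1.72e-05). Pex7, the receptor for the other import signal, fell 2.31-fold, and the matrix enzyme genes Phyh and Ech1 fell 2.44-fold and 2.04-fold (adjusted p = 9.02e-06 and 9.40e-06). Of the risers, Pxmp2 and Pxmp4 encode membrane proteins and rose 2.85-fold and 1.78-fold, and Agps, which encodes an enzyme of ether lipid synthesis, rose 1.68-fold.

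Of 5 glutathione peroxidases, Gpx3 and Gpx8 rose, Gpx1 and Gpx4 fell and Gpx7 did not pass, near the 71.1% of all genes that passed. Without WT replicate 1 all 5 passed, 3 as higher. Gpx1, of the cytosol and mitochondria, fell 1.72-fold and the lipid peroxidase gene Gpx4 1.79-fold, while the secreted Gpx3 went from 205 ± 50.5 to 5709 ± 218 (SD, n = 3) and Gpx8, of the endoplasmic reticulum, rose 1.38-fold. Of 8 tested genes of glutathione synthesis and glutaredoxins, 2 rose and 4 fell, again near the background. The glutathione synthesis genes Gclc and Gss were the risers, by 4.25-fold and 2.54-fold (adjusted p = 2.56e-07 and 1.35e-05). Of 7 genes of disulfide exchange in the endoplasmic reticulum, where PRDX4 works, 3 rose, 1 fell and 3 did not pass, and without WT replicate 1 the counts were 4, 1 and 2, against 36.2% higher and 34.9% lower over all genes. Pdia3 had a log2 fold change of 0.55 and Erp44, which also holds PRDX4 in that compartment, of 0.51.

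Of 14 tested genes that encode sources of superoxide and peroxide, 8 fell, 4 rose and 2 did not pass, and without WT replicate 1 the counts were 9, 4 and 1. The shares over all genes were 34.9% lower and 36.2% higher. The median log2 fold change was -0.62, beside -0.012 over all genes. The monoamine oxidase genes Maoa and Maob, whose products make hydrogen peroxide at the outer mitochondrial membrane, had log2 fold changes of -1.09 and -1.14, and Ero1a, which makes it in the endoplasmic reticulum, also -1.09. Nox4, an NADPH oxidase that releases hydrogen peroxide, had 2.08.

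Of 11 known regulators of antioxidant genes, 5 fell, 2 rose and 4 did not pass, and without WT replicate 1 the counts were 6, 1 and 4. The share that passed did not exceed the 71.1% over all genes. Nfe2l2, which encodes NRF2, had 6781, 6786 and 6551 normalized counts in WT and 5881, 5755 and 5739 in Bmal1 KO, a small fall with no overlap (log2 fold change -0.21, adjusted p = 0.00758). Its relative Nfe2l1 and the heat shock factor gene Hsf1 had log2 fold changes of -0.58 and -0.89. Foxo1, of a family known to drive Sod2 and Cat, had 0.44 (adjusted p = 0.000973), and this call was lost after the length and GC correction (-0.0025, adjusted p = 0.983). Foxo3 and Foxo4 of that family did not pass, at 0.13 and -0.21 (adjusted p = 0.492 and 0.0855). Sod2 is also a known NF-kB target, and 9 of 10 NF-kB subunit and feedback genes fell, where 34.9% of all genes did. The count stayed at 9 without WT replicate 1 or Bmal1 KO replicate 2, and was 8 with any other library left out. The median log2 fold change of the 10 genes was -0.84. Of these Tnfaip3 fell 3.72-fold and Nfkb2 1.97-fold, while Birc3 rose 2.53-fold (adjusted p = 1.33e-05). RNA levels here do not measure the activity of any of these factors. The plot of partner genes shows every list.

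**Figure D5:**
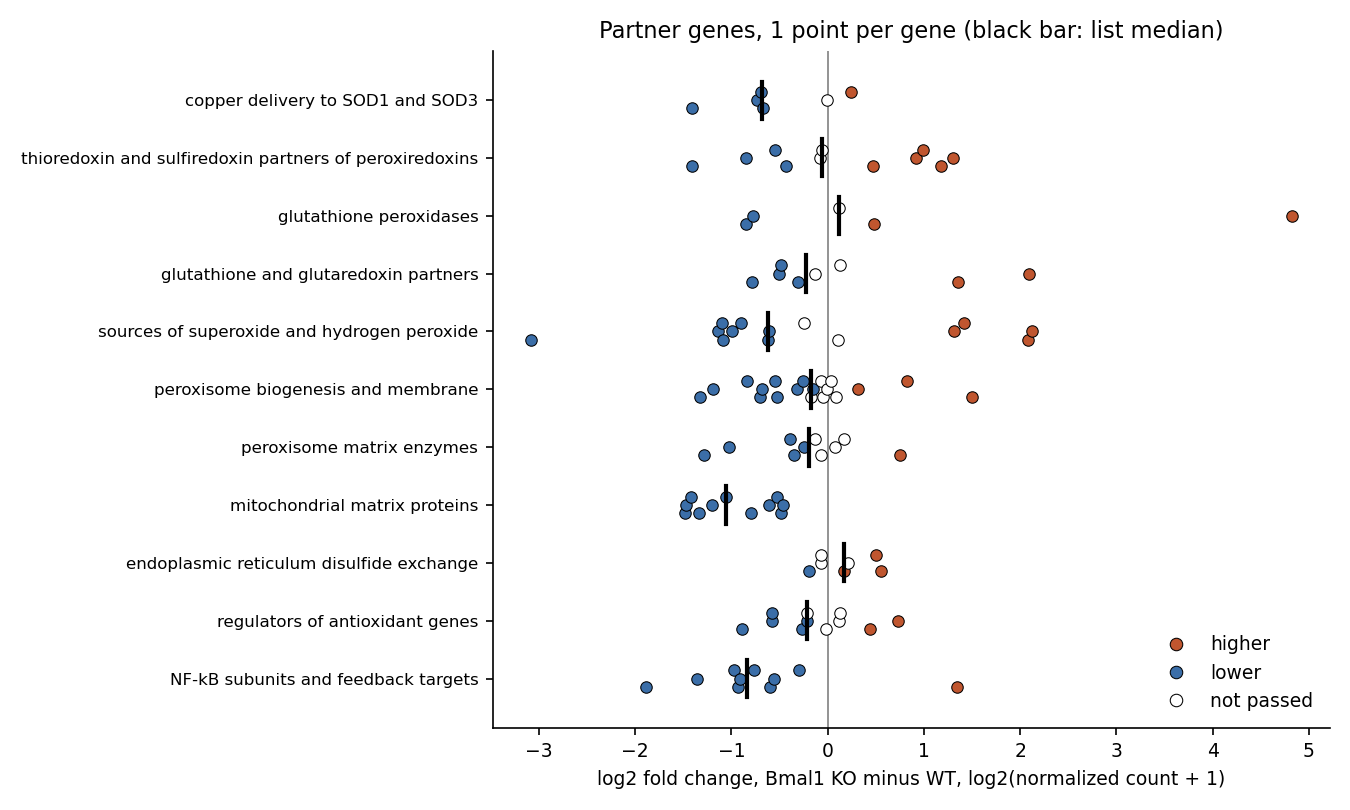
Log2 fold change, Bmal1 KO minus WT (horizontal axis), of the tested genes in 11 lists of partner genes. Orange points passed as higher, blue points as lower, and white points did not pass, and black bars are list medians. All 11 mitochondrial matrix genes lie left of 0, with a median of -1.06, and the thioredoxin and glutathione lists spread to both sides.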

How the data were processed

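RNA from 3 WT and 3 Bmal1 KO libraries was compared, with groups and replicate numbers from the sample titles. Total RNA (1.0 µg per library) went into a stranded mRNA kit, per the labels' protocols. The submitters' processing notes list Trimmomatic, HISAT2, featureCounts and mm10, with neither version nor role. The sources used here do not give the annotation or the strand setting. The authors deposited 1 signal per gene and library, a normalized read count. All values (100%) were multiples of 1 unit in their library within 0.01, which gave whole reads for edgeR and DESeq2. The implied factors equal median-ratio size factors, which assume that most genes do not differ. Library depth was 32503525 to 44657471 reads, and no member had under 1921 normalized counts in a library, so replicate spread rather than counting error limits precision.

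The main test was limma (trend) on log2(value + 1), with group as the only term, over 16086 genes with at least 10 in 3 libraries. Fold changes on the log2 scale refer to log2(value + 1), and folds are ratios of mean normalized counts. The method was tested on simulated data. These had far fewer differing genes than the libraries here and no dependence on transcript length, so they do not show how the method performs under those conditions. No 2 libraries were duplicates. Transcript lengths and GC content came from GENCODE M21 transcripts linked to RefSeq and covered 92.5% of tested genes. Alternatives were other pseudocounts, filters, scalings and tests, the replicate block, each library left out, and a correction that removed the dependence on length and GC. Genes named were the members, 10 direct partners, up to 4 per list with the smallest adjusted p, and the genes nearest to Sod2 and Cat. Gpx7, Junb, Prdx6b, Foxo3, Foxo4 and the markers named were added after their values were seen. The members and lists were chosen with earlier results of these data known. The software was limma 3.58.1 under R 4.3.3, with DESeq2 1.42.0 and edgeR 4.0.16 as alternatives.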

Additional observations from a re-analysis of the deposited data

How the results depend on the processing

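The 6 members that passed kept their direction and their call in all 20 alternatives. The log2 fold change ranged from -2.38 to -1.98 for Sod2, -1.15 to -0.72 for Sod1, -0.86 to -0.65 for Prdx3, -0.86 to -0.60 for Prdx5, 0.61 to 0.76 for Cat and 0.55 to 0.72 for Prdx6. With each library left out in turn, Prdx1 ran from -0.15 to 0.15, Prdx2 from 0.043 to 0.28, Prdx4 from 0.20 to 0.43 and Txn1 from -0.21 to 0.11, and each reached its highest value without WT replicate 1. Without both replicate 1 libraries, an alternative chosen after seeing the data, Prdx1 was at 0.085, Prdx2 at 0.25, Prdx4 at 0.37 and Txn1 at 0.018, and Prdx2 and Prdx4 passed. After the correction for length and GC, Sod3 was at -0.15, Prdx1 at 0.016, Prdx2 at 0.24, Prdx4 at 0.48, Txn1 at 0.11 and Foxo1 at -0.0025, with Sod3, Prdx2 and Prdx4 past the threshold. These values and calls were the same with the replicate block added, also chosen after seeing the data. The cause of these changes was not tested.

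Deviations of same-numbered libraries from their group means had r = -0.0045, 0.026 and 0.084 over 16086 genes. Both replicate 1 libraries leaned towards short transcripts, so these values cannot decide whether the numbers pair the samples. With the replicate block, 7 members passed in place of 6, Prdx4 being added at 0.28 (adjusted p = 0.0149, limma), and 5869 genes were higher and 5687 lower. The number of higher and lower genes was 5367 and 6274 after total-count scaling and 6062 and 5325 with upper quartiles. With 3 libraries a group, the 95% intervals of Sod3, Prdx1, Prdx2 and Prdx4 all included no difference in the fit of all libraries. In folds they ran from 0.833 to 1.06 for Sod3 and 0.758 to 1.25 for Prdx1. For Prdx2 they ran from 0.891 to 1.34 and for Prdx4 from 0.983 to 1.49. Differences within these bounds are undecided.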
